A study of Mus musculus with 6 samples.

Results

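The genes described here encode the enzymes that carry glucose through glycolysis to lactate, through the pentose phosphate pathway and into and out of glycogen, together with the 4 enzymes that set fructose 2,6-bisphosphate, the fructose-entry enzyme Khk and a pair of lactate transporters. They were chosen by gene symbol, as a list of 40, and all 40 were found among the 45808 symbols of the deposited count table. All 40 also passed the filter on low counts and were among the 14459 genes tested, although 1 of them, Pygm, held only 5 to 30 reads per library.

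RNA was sequenced from cultured mouse stromal-vascular cells, the fraction of fat tissue that contains adipocyte precursors, taken from the inguinal white fat of 8-week-old males and titled WT. The 3 groups were confluent cells with no induction (day 0), cells after 2 days of induction medium (day 2), and cells carried on in maintenance medium (day 6), with 2 libraries each, numbered 76 and 77. The induction medium for beige adipocytes, fat cells that can burn fuel for heat, held 0.5 mM IBMX (a phosphodiesterase inhibitor), 5 µM dexamethasone (a glucocorticoid), 125 µM indomethacin, 850 nM insulin, 1 nM T3 (a thyroid hormone) and 1 µM rosiglitazone (a PPAR gamma agonist). The maintenance medium dropped the first 3 of these agents and kept insulin, T3 and rosiglitazone, so that no library separates 1 agent from another or from time. No uninduced culture of day 6 was analysed here.

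Glycolysis splits glucose into pyruvate, which lactate dehydrogenase can turn into lactate for export. The pentose phosphate pathway branches off at glucose 6-phosphate: its oxidative arm yields NADPH, the reductant that fatty acid synthesis uses, and its non-oxidative arm returns carbon to glycolysis. Glycogen is the cell's stored glucose polymer. In fat cells, insulin raises glucose uptake, and glucose feeds both the glycerol backbone and the fatty acids of stored fat.

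The libraries held 22522221 to 29458374 counts in genes. Levels are given in CPM, in which each count is scaled by its library's TMM-adjusted total. The 6 adipocyte markers checked (Adipoq, Fabp4, Plin1, Cidec, Cd36, Lpl) summed to 798 and 914 CPM on day 0, 9372 and 8906 on day 2, and 49026 and 41192 on day 6, and all 6 were higher on each later day. The 5 progenitor markers summed to 1241 and 1266 CPM on day 0, 1013 and 1179.8 on day 2, and 568 and 842 on day 6. The 8 skeletal muscle markers summed to 17.8 and 15.3 CPM on day 0, 9.82 and 2.37 on day 2, and 6.57 and 2.89 on day 6, with Ckm at 0 in 5 of the 6 libraries. The 5 macrophage markers summed to 13.7 and 12.2 CPM on day 0, 10.8 and 6.15 on day 2, and 34.0 and 13.9 on day 6. Mural markers (5) summed to 143 and 127 CPM on day 0, 53.2 and 48.1 on day 2, and 224 and 217 on day 6, and endothelial markers (5) to 34.1 and 30.0 CPM on day 0, 6.6 and 6.4 on day 2, and 11.8 and 15.6 on day 6. The mural markers did not move together: at day 6 against day 0, 3 (Cspg4, Notch3 and Mcam) were higher and 2 (Rgs5 and Myh11) lower. The 4 erythroid markers were at or near 0 in all 6 libraries, with Hba-a1 and Hbb-bs at 0. The part of these marker differences in the results below was not tested. In bulk RNA, a change in the number of cells that express a gene cannot be told apart from a change in its RNA per cell. The libraries of day 6 stood further apart than those of the other days: the median absolute log2 difference between the libraries of a day was 0.151 over the 40 members at day 0, 0.116 at day 2 and 0.315 at day 6. Of the 40 members, 28 were lower in library 77 than in library 76 at day 0, 25 at day 2 and 35 at day 6. The same was not counted over all genes.

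At day 2, 19 members were higher than at day 0 and 8 were lower, at an adjusted p of 0.05 by edgeR's quasi-likelihood test, and 13 did not pass. Of the members, 47.5% were higher and 20% were lower, beside 33.6% and 33.6% of all genes tested (67.1% in either direction). The median log2 change was 0.31 over the members and 0.00 over all genes tested. At day 6, 29 members were higher than at day 2 and 4 were lower, beside 38.2% and 27.5% of all genes (65.7% in either direction), with a median log2 change of 0.59 over the members and 0.12 over all genes. Against day 0, 27 members were higher at day 6 and 7 were lower, beside 35.9% and 35.1% of all genes (70.9% in either direction), with medians of 0.88 and -0.01. A fitted change of over 2-fold that passed was found upward in 8 members and downward in 5 at day 2 against day 0, beside 12.3% and 17.9% of all genes. At day 6 against day 2 it was found in 17 and 2 members, beside 19.2% and 10.4%, and at day 6 against day 0 in 18 and 2, beside 18.5% and 18.4%. The 3 comparisons share libraries pairwise, so that each is given by its own values. The shares of all genes are also the background for the counts of every smaller list below. The mean level was highest at day 6 in 29 members, at day 2 in 4 and at day 0 in 7. The highest day was not counted over all genes, so these numbers have no background beside them.

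**Figure D1:**
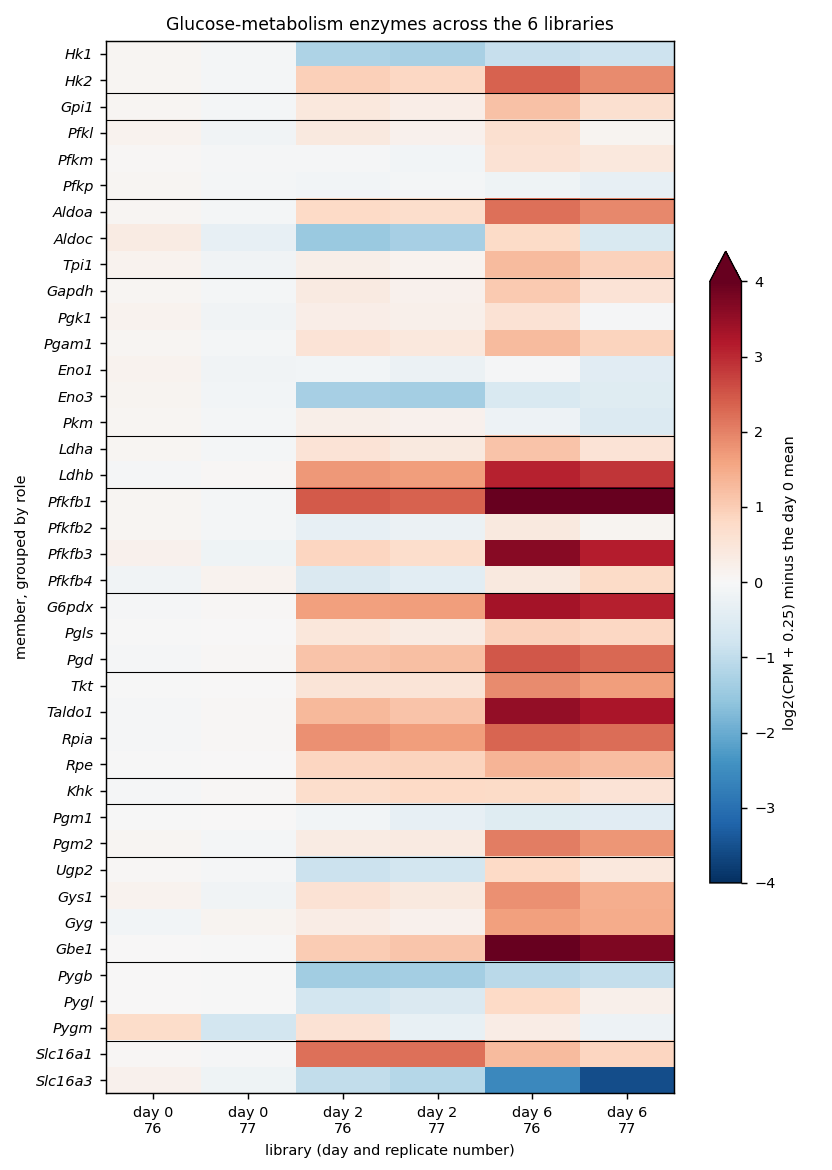
Heat map of the 40 genes (rows, in order of their roles) in the 6 libraries (columns), coloured by log2(CPM + 0.25) minus the mean of the day 0 libraries. Pfkfb1, Gbe1, Pfkfb3, Taldo1 and G6pdx show the strongest red at day 6, and Slc16a3 the strongest blue.

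The share of all counts that each pathway took is given next. The 17 glycolytic genes took 0.950% and 0.843% of the counts on day 0, 1.23% and 1.13% on day 2, and 1.41% and 1.11% on day 6. The 7 pentose phosphate genes took 0.0632% and 0.0664% of the counts on day 0, 0.145% and 0.144% on day 2, and 0.311% and 0.286% on day 6. The 9 glycogen and phosphoglucomutase genes took 0.0610% and 0.0591% of the counts on day 0, 0.0581% and 0.0561% on day 2, and 0.128% and 0.107% on day 6. The pentose phosphate share was thus higher on each later day in both libraries, whereas the glycogen share was lower at day 2 than at day 0 and highest at day 6. The glycolytic share was higher at day 2 than at day 0, and its libraries of day 6 lay on both sides of those of day 2. These shares use raw library totals. With TMM scaling, as in the levels below, the glycolytic sums were 9268 and 8128 CPM on day 0, 10994 and 10148 on day 2, and 16671 and 12521 on day 6, so that both libraries of day 6 then lay above those of day 2.

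**Figure D2:**
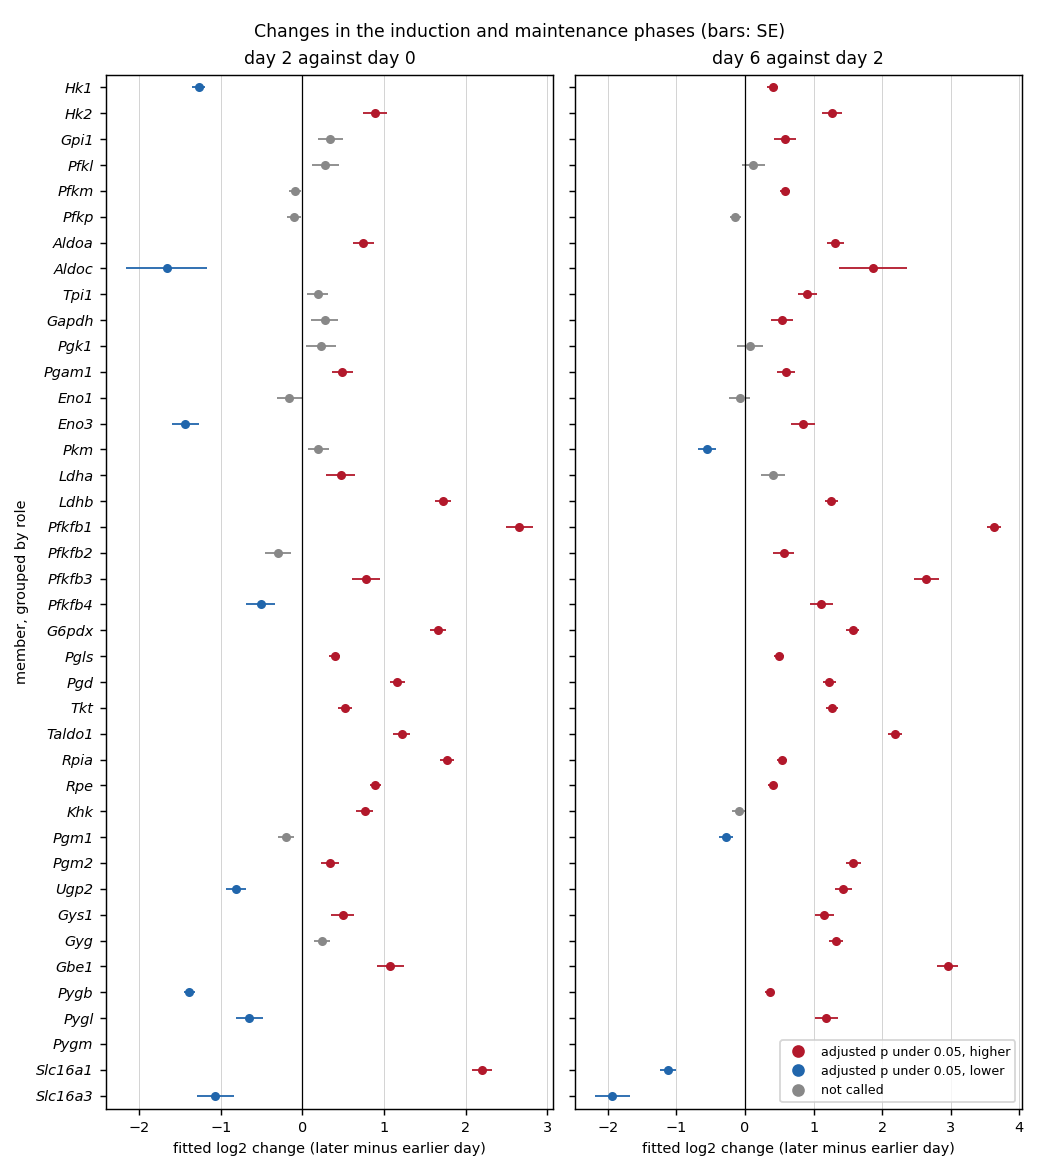
Fitted log2 change (points) with its standard error (bars) for each member, day 2 against day 0 and day 6 against day 2, by edgeR with 2 libraries per day. Pygm is not drawn because of its low counts. The 7 pentose phosphate genes lie to the right of 0 in both comparisons, while Hk1, Aldoc, Eno3, Pfkfb4, Ugp2, Pygb and Pygl lie left of 0 at day 2 against day 0 and right of it at day 6 against day 2.

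All 7 pentose phosphate genes were higher at day 2 than at day 0, at day 6 than at day 2 and at day 6 than at day 0, each past the adjusted p of 0.05 by edgeR. Between day 6 and day 0 the differences ran from 1.85-fold for Pgls to 10.6-fold for Taldo1. The first enzyme, glucose 6-phosphate dehydrogenase, which makes the pathway's first NADPH and commits glucose to it, is encoded by G6pdx on chromosome X from 74409483 to 74429194 (minus strand), GRCm38. G6pdx stood at 70.7 and 75.6 CPM on day 0, 228 and 235 on day 2, and 737 and 639 on day 6. No 2 days overlapped, and G6pdx was 3.17-fold higher at day 2 than at day 0 (log2 change 1.66, SE 0.09, adjusted p = 2.66e-06 by edgeR) and 2.97-fold higher at day 6 than at day 2 (log2 change 1.57, SE 0.09, adjusted p = 2.50e-06 by edgeR).

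Pgd, which encodes the second NADPH-making step, had 199 and 209 CPM on day 0, 446 and 468 on day 2, and 1132 and 1012 on day 6. Its days were likewise apart, with 5.26-fold more at day 6 than at day 0 (log2 change 2.39, SE 0.09, adjusted p = 1.82e-07 by edgeR). Pgls, the lactonase between these steps, had 56.8 and 57.8 CPM on day 0, 78.3 and 72.3 on day 2, and 109.9 and 102 on day 6, the smallest difference of the 7 genes between day 6 and day 0 (1.85-fold; log2 change 0.89, SE 0.07, adjusted p = 1.04e-05 by edgeR). Part of G6pdx and of Pgls is shared with a neighbour: 13.6% of the exonic length of G6pdx overlaps Ikbkg, and 20.6% of that of Pgls overlaps Fam129c. Where reads there were counted depends on the strand setting, which no label names.

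In the non-oxidative arm, Taldo1 encodes transaldolase, which passes 3-carbon units between sugars, and lies on chromosome 7 from 141392199 to 141402968 (plus strand). Its levels were 77.9 and 82.6 CPM on day 0, 196 and 176 on day 2, and 919 and 779 on day 6. Taldo1 was 2.32-fold higher at day 2 than at day 0 and 4.56-fold higher at day 6 than at day 2, the larger of its 2 steps (log2 changes 1.21 and 2.19; adjusted p = 2.16e-05 and 9.80e-07 by edgeR). Tkt, transketolase, which moves 2-carbon units, had 162 and 164 CPM on day 0, 232 and 235 on day 2, and 601 and 522 on day 6. The Tkt libraries of day 0 were nearly equal, and the gene was 3.45-fold higher at day 6 than at day 0 (log2 change 1.78, SE 0.09, adjusted p = 6.98e-07 by edgeR).

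Rpia, the isomerase that makes ribose 5-phosphate, had 13.6 and 14.5 CPM on day 0, 50.3 and 45.8 on day 2, and 72.1 and 67.5 on day 6. Most of its increase lay in the induction phase, 3.42-fold at day 2 against day 0 (log2 change 1.77, SE 0.08, adjusted p = 1.28e-06 by edgeR) and 1.45-fold at day 6 against day 2 (log2 change 0.54, SE 0.08, adjusted p = 0.000382 by edgeR). Rpe, the epimerase that makes xylulose 5-phosphate, had 36.5 and 36.8 CPM on day 0, 67.4 and 68.7 on day 2, and 94.3 and 85.8 on day 6. It was 2.46-fold higher at day 6 than at day 0 (log2 change 1.30, SE 0.07, adjusted p = 1.16e-06 by edgeR). With library totals in place of TMM scaling, the second-phase differences of Pgls, Rpia and Rpe no longer passed (adjusted p = 0.122, 0.0759 and 0.560 by edgeR, the highest of any alternative for each), while those of G6pdx, Pgd, Tkt and Taldo1 did. The libraries held 85.7 and 89.0 CPM on day 0, 174 and 169 on day 2, and 3415 and 2746 on day 6 of Me1, malic enzyme, and 204 and 221 CPM on day 0, 431 and 436 on day 2, and 1017 and 942 on day 6 of Idh1, the other cytosolic NADPH-making enzymes listed. Both were higher in all 3 comparisons, Me1 by 35.3-fold and Idh1 by 4.61-fold at day 6 against day 0 (log2 changes 5.14 and 2.21, adjusted p = 3.23e-08 and 2.11e-07 by edgeR).

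**Figure D3:**
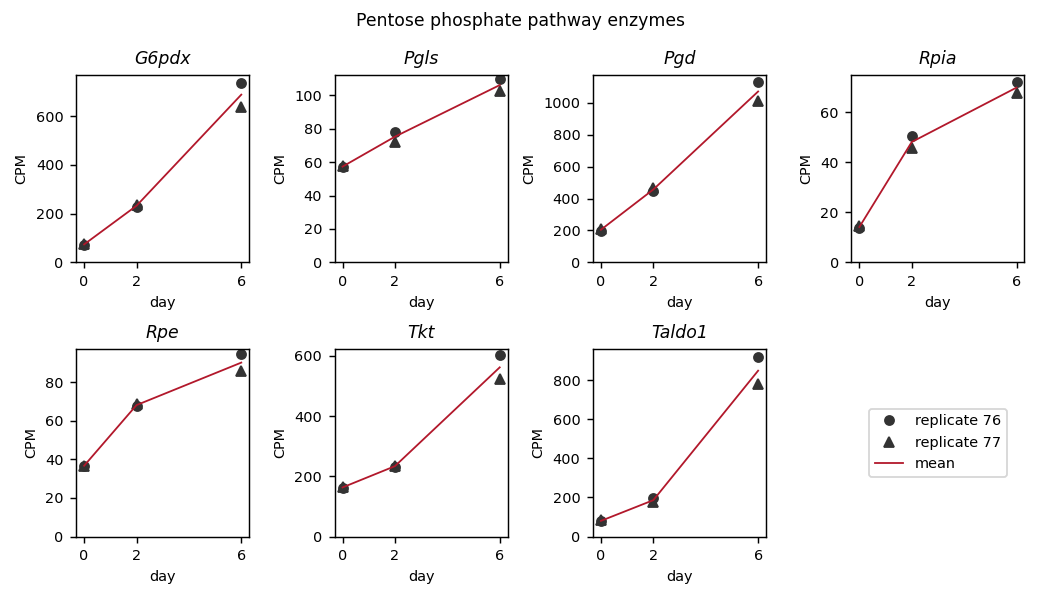
Levels in CPM (linear axes, each with its own range) of the 7 pentose phosphate genes at days 0, 2 and 6, a panel each. Points are libraries and lines join the means of 2 libraries per day. Every line climbs at both steps. In fold terms, Taldo1 gained most of the 7 genes after day 2 and Rpia most before it.

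The promoters of the pentose phosphate genes that changed most, G6pdx and Taldo1, are printed to show what the window before their start holds. The sequences are RefSeq's on GRCm38.p6, 250 bases before the annotated start and 50 after it, read 5′ to 3′ on the strand of the gene, at chrX:74428831-74429130 (minus strand) for G6pdx and chr7:141391910-141392209 (plus strand) for Taldo1. Capitals mark matches, on either strand, to the hypoxia-inducible factor core ACGTG, the E-box CACGTG or the antioxidant response core TGACNNNGC. CACGTG contains ACGTG on both strands and is counted under both.
G6pdx promoter: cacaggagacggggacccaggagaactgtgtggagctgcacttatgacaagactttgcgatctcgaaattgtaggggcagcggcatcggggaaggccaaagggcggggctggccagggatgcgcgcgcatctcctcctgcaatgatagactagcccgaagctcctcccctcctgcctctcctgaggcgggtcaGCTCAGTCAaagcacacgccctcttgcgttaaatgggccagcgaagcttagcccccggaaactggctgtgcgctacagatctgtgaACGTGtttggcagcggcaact
Taldo1 promoter: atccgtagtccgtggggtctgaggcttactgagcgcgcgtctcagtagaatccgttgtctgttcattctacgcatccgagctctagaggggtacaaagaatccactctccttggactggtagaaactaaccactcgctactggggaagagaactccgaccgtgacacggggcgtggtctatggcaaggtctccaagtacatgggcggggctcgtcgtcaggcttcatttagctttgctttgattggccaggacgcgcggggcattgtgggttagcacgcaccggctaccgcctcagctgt
In G6pdx a match to TGACNNNGC began 57 bases before the start and 1 match to ACGTG lay after it, and Taldo1 held no match to any of the 3. Promoter windows were found for 38 members, all but Pgm1 and Pgm2. ACGTG occurred in 18 of these (47.4%), beside 19.7% of the 27025 promoters in the table and 25.5% of the 10396 that matched a tested gene. CACGTG occurred in 6 (15.8%), beside 7.24% of all promoters and 10.1% of those of tested genes. TGACNNNGC occurred in 2 (5.26%), G6pdx and Slc16a1, beside 12.5% of all promoters and 14.9% of those of tested genes. Only 10396 of the 14459 tested genes matched a promoter, so this background is incomplete. A match of letters is not a binding site, and no binding was measured.

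Glucose is trapped in the cell by hexokinase. Hk1, the isoform found in most tissues, had 147 and 131 CPM on day 0, 59.5 and 56.0 on day 2, and 73.9 and 79.0 on day 6. It was 2.41-fold lower at day 2 than at day 0 (log2 change -1.27, SE 0.08, adjusted p = 4.50e-06 by edgeR), and at day 6 it stood above day 2 but stayed 1.82-fold below day 0 (log2 change -0.87, SE 0.08, adjusted p = 2.31e-05 by edgeR). Hk2, the isoform known for its regulation by insulin in muscle and fat, went the other way, with 41.5 and 37.8 CPM on day 0, 76.6 and 70.6 on day 2, and 206 and 147 on day 6. Each day lay above the one before without overlap, and the difference was 4.45-fold between day 6 and day 0 (log2 change 2.16, SE 0.15, adjusted p = 4.33e-06 by edgeR). The smaller gain of Hk1 at day 6 against day 2 (log2 change 0.40, adjusted p = 0.00251 by edgeR) did not pass with library totals (0.05, adjusted p = 0.659, the alternatives spanning 5.36e-05 to 0.659).

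Per kilobase of exon, so that the 2 genes can be set side by side, Hk2 made up 28.9% ± 0.334 of the summed Hk1 and Hk2 level at day 0, 64.6% ± 0.330 at day 2 and 76.3% ± 5.14 at day 6 (SD, n = 2). The order of the isoforms was therefore turned round between day 0 and day 2. With the length of the longest transcript in place of all exons, the Hk2 share was 18.1% ± 0.240, 49.7% ± 0.361 and 63.8% ± 6.58, and at day 2 the isoforms were then about level. An exact permutation test of 2 libraries against 2 cannot go below p = 0.333, so none is given for the shares.

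In upper glycolysis, Gpi1 encodes the isomerase that turns glucose 6-phosphate into fructose 6-phosphate. Gpi1 had 368 and 330.1 CPM on day 0, 464 and 421 on day 2, and 781 and 546 on day 6. The gene was 1.9-fold higher at day 6 than at day 0 (log2 change 0.93, SE 0.16, adjusted p = 0.000857 by edgeR) and did not pass at day 2 against day 0 (adjusted p = 0.0857 by edgeR, and 0.0209 blocked by replicate number). Its difference between day 6 and day 2 (log2 change 0.59, SE 0.16, adjusted p = 0.0108 by edgeR) was lost without library 77 of day 2 (adjusted p = 0.0845), without library 77 of day 0 (0.0556) and with library totals (0.214), the alternatives spanning 4.85e-09 to 0.214.

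Phosphofructokinase, the main controlled step of glycolysis, is built of subunits from Pfkl (liver type), Pfkm (muscle type) and Pfkp (platelet type). Pfkm had 58.2 and 55.4 CPM on day 0, 54.6 and 52.3 on day 2, and 84.3 and 75.9 on day 6. It was 1.5-fold higher at day 6 than at day 2 (log2 change 0.58, SE 0.08, adjusted p = 0.000197 by edgeR), while day 2 against day 0 did not pass. Pfkl had 312 and 259 CPM on day 0, 371 and 324 on day 2, and 445 and 309.8 on day 6. The libraries of day 6 lay on both sides of those of day 2, and Pfkl passed in no comparison (adjusted p = 0.174, 0.561 and 0.0629 by edgeR for day 2 against 0, day 6 against 2 and day 6 against 0), but blocked by replicate number it passed in the first (0.0264) and the third (0.00579). Pfkp had 57.9 and 52.6 CPM on day 0, 51.1 and 51.8 on day 2, and 49.0 and 44.1 on day 6, lower at day 6 than at day 0 by 1.19-fold (log2 change -0.25, SE 0.08, adjusted p = 0.0238 by edgeR). The difference was not significant without library 76 of day 0 (adjusted p = 0.182) and without library 77 of day 6 (0.110), the alternatives spanning 0.000449 to 0.182.

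Aldolase cleaves fructose 1,6-bisphosphate into the triose phosphates. Aldoa, the muscle-type and most widely expressed isoform, on chromosome 7 from 126795234 to 126800751 (minus strand), had 894 and 813 CPM on day 0, 1484 and 1382 on day 2, and 3944 and 3201 on day 6. Both later days stood clear of the one before, and Aldoa was 4.19-fold higher at day 6 than at day 0 (log2 change 2.07, SE 0.13, adjusted p = 2.44e-06 by edgeR). Aldoc, the brain-type isoform, was a minor transcript at 3.68 and 2.27 CPM on day 0, 0.884 and 1.01 on day 2, and 5.05 and 1.8 on day 6. Its days 0 and 6 overlapped, and the libraries of day 6 differed more than those of any other member on that day. Aldoc was 3.16-fold lower at day 2 than at day 0 (log2 change -1.66, SE 0.49, adjusted p = 0.0168 by edgeR). This did not pass without library 76 of day 0, 76 of day 2 or 77 of day 2 (adjusted p = 0.117, 0.0916 and 0.0683 by edgeR, the alternatives spanning 7.71e-09 to 0.117). Its difference at day 6 against day 2 (3.65-fold higher, log2 change 1.87, SE 0.50, adjusted p = 0.0104 by edgeR) did not pass without library 76 of day 2 (0.0647) or 76 of day 6 (0.0784, with a log2 change of 0.92), the alternatives spanning 8.59e-11 to 0.0784. Tpi1, triose phosphate isomerase, had 488 and 407 CPM on day 0, 528 and 489 on day 2, and 1063 and 848 on day 6. It was 1.88-fold higher at day 6 than at day 2 (log2 change 0.91, SE 0.13, adjusted p = 0.000411 by edgeR), with no passing difference at day 2 against day 0.

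Of the 6 lower glycolysis genes, which carry triose phosphate to pyruvate, 1 was higher (16.7%) and 1 lower (16.7%) at day 2 against day 0. At day 6 against day 2, 3 were higher (50%) and 1 lower (16.7%), beside 38.2% and 27.5% of all genes tested. Gapdh, the NADH-making dehydrogenase often used as a reference gene, had 1604 and 1423 CPM on day 0, 1951 and 1705 on day 2, and 3097 and 2220.1 on day 6. It did not pass at day 2 against day 0, and its 1.76-fold difference at day 6 against day 0 did (log2 change 0.81, SE 0.16, adjusted p = 0.00223 by edgeR). With no filter on low counts, Gapdh passed as higher at day 2 against day 0 (log2 change 0.28, adjusted p = 0.00579 by edgeR). Between day 6 and day 2 Gapdh was 1.45-fold higher (log2 change 0.54, SE 0.16, adjusted p = 0.0186 by edgeR). This was lost without library 77 of day 2 (adjusted p = 0.138), without library 77 of day 0 (0.0906) and with library totals (0.347), the alternatives spanning 4.52e-08 to 0.347. Pgam1, phosphoglycerate mutase, had 548 and 486 CPM on day 0, 756 and 694 on day 2, and 1233 and 965 on day 6. It was 2.13-fold higher at day 6 than at day 0 (log2 change 1.09, SE 0.13, adjusted p = 0.000108 by edgeR) with no overlap between days. At day 2 against day 0 Pgam1 was 1.4-fold higher (log2 change 0.49, SE 0.13, adjusted p = 0.0101 by edgeR). This did not pass without library 76 of day 2 (adjusted p = 0.0724, the alternatives spanning 4.84e-07 to 0.0724), and at day 6 against day 2 the difference (log2 change 0.60, SE 0.13, adjusted p = 0.00367 by edgeR) did not pass with library totals (0.119, the alternatives spanning 1.75e-09 to 0.119).

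Pgk1, phosphoglycerate kinase, an ATP-making step, had 571 and 477 CPM on day 0, 623 and 607 on day 2, and 787 and 509 on day 6, and Eno1, the widely expressed enolase, had 1309 and 1096 CPM on day 0, 1119 and 1028 on day 2, and 1168 and 866 on day 6. Neither passed in any comparison of the reported fit, and for both genes the libraries of day 6 lay on both sides of those of day 2. With library totals, Eno1 passed as lower at day 6 against day 2 (log2 change -0.44, adjusted p = 0.0263 by edgeR) and against day 0 (-0.49, 0.0151). With no filter on low counts, Eno1 passed as lower at day 6 against day 0 (-0.24, 0.0256). Pgk1 then passed as higher at day 2 (0.24, 0.0240) and day 6 (0.31, 0.00259) against day 0. Pkm, pyruvate kinase, had 1883 and 1674 CPM on day 0, 2073 and 1999 on day 2, and 1556 and 1218 on day 6. It was 1.47-fold lower at day 6 than at day 2 (log2 change -0.55, SE 0.13, adjusted p = 0.00620 by edgeR). Against day 0, Pkm was 1.28-fold lower at day 6 (log2 change -0.36, SE 0.13, adjusted p = 0.0386 by edgeR). This was lost without either library of day 0, either of day 2 or library 77 of day 6 (adjusted p between 0.0687 and 0.210, the alternatives spanning 0.000396 to 0.210). Gene counts do not tell the PKM1 and PKM2 splice forms apart. Eno3, the muscle-type enolase, was a minor transcript at 7.29 and 6.3 CPM on day 0, 2.55 and 2.48 on day 2, and 4.33 and 4.74 on day 6. It was 2.7-fold lower at day 2 than at day 0 (log2 change -1.43, SE 0.17, adjusted p = 0.000118 by edgeR) and 1.8-fold higher at day 6 than at day 2 (log2 change 0.85, SE 0.18, adjusted p = 0.00322 by edgeR), while its lower level at day 6 against day 0 (log2 change -0.59, SE 0.16, adjusted p = 0.0119 by edgeR) did not pass without library 76 of day 0 (adjusted p = 0.0960, the alternatives spanning 0.00222 to 0.0960).

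Several of these genes share sequence with other annotated genes. Over 20% of the exonic 50-base words also occur in annotated transcripts of other genes for 6 members: Pgk1 (53.9%), Pgam1 (36.2%), Eno1 (26.0%), Pkm (25.8%), Gapdh (25.1%) and Ldhb (21.0%). The genome itself was not searched. The other genes can lie at the same place, as does Gm49759, which overlaps 15.3% of the exonic length of Pkm. Reads that did not align uniquely were set aside by the authors' counting, so the levels of these 6 are uncertain. The share set aside was 4.16% to 4.42% at day 0, 6.21% to 6.65% at day 2 and 7.5% to 9.05% at day 6.

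Lactate dehydrogenase is a tetramer of the Ldha and Ldhb products, of which the A form is the muscle type and the B form the heart type. Ldhb had 21.7 and 23.5 CPM on day 0, 76.1 and 72.5 on day 2, and 192 and 164 on day 6. No days overlapped, and Ldhb was 3.29-fold higher at day 2 than at day 0 (log2 change 1.72, SE 0.10, adjusted p = 2.48e-06 by edgeR) and 7.89-fold higher at day 6 than at day 0 (log2 change 2.98, SE 0.10, adjusted p = 7.08e-08 by edgeR). Ldha had 953 and 854 CPM on day 0, 1304 and 1192 on day 2, and 1983 and 1322 on day 6. It was 1.83-fold higher at day 6 than at day 0 (log2 change 0.87, SE 0.18, adjusted p = 0.00229 by edgeR). At day 2 against day 0 its 1.38-fold difference passed narrowly (log2 change 0.47, SE 0.18, adjusted p = 0.0440 by edgeR), and not when either library of day 0 or of day 2 was left out (adjusted p between 0.0868 and 0.182) or with the stricter filter on low counts (0.0519), the alternatives spanning 1.31e-06 to 0.182. At day 6 against day 2 Ldha did not pass (log2 change 0.40, SE 0.18, adjusted p = 0.0730 by edgeR), but did blocked by replicate number (adjusted p = 0.0312). Per kilobase, Ldhb made up 5.03% ± 0.633 of the summed level of both genes at day 0, 11.2% ± 0.287 at day 2 and 18.8% ± 2.64 at day 6 (SD, n = 2), and Ldha remained the larger share in every library.

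Lactate leaves and enters cells through monocarboxylate transporters. Slc16a1 encodes MCT1, which works in either direction and is found in many tissues, and lies on chromosome 3 from 104638668 to 104658462 (plus strand). Slc16a1 had 59.0 and 55.4 CPM on day 0, 263 and 264 on day 2, and 137 and 105 on day 6. The libraries of day 2 were the highest and almost equal, 4.6-fold above day 0 (log2 change 2.20, SE 0.12, adjusted p = 2.44e-06 by edgeR). Day 6 lay between the others, 2.18-fold below day 2 (log2 change -1.12, SE 0.12, adjusted p = 5.70e-05 by edgeR) and 2.11-fold above day 0 (log2 change 1.08, SE 0.12, adjusted p = 6.70e-05 by edgeR). Slc16a3 encodes MCT4, known as the lactate exporter of glycolytic cells, and lies on chromosome 11 from 120948480 to 120960868 (plus strand). Slc16a3 had 173 and 138 CPM on day 0, 78.7 and 69.7 on day 2, and 25.6 and 13.1 on day 6. Each day lay below the one before without overlap, by 2.1-fold at day 2 against day 0 (log2 change -1.07, SE 0.23, adjusted p = 0.00335 by edgeR) and by 3.82-fold at day 6 against day 2 (log2 change -1.93, SE 0.25, adjusted p = 0.000203 by edgeR). It was the member with the largest decrease, 8.0-fold at day 6 against day 0 (log2 change -3.00, SE 0.26, adjusted p = 1.37e-05 by edgeR), and its libraries of day 6 differed by 0.96 on the log2 scale, more than those of any other member but Aldoc.

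Per kilobase, Slc16a1 made up 30.8% ± 2.39 of the summed level of both transporters at day 0, 81.0% ± 1.35 at day 2 and 88.6% ± 2.83 at day 6 (SD, n = 2). Their promoter windows are printed because the pair moved apart, at chr3:104638414-104638713 (plus strand) for Slc16a1 and chr11:120948817-120949116 (plus strand) for Slc16a3, with capitals as above.
Slc16a1 promoter: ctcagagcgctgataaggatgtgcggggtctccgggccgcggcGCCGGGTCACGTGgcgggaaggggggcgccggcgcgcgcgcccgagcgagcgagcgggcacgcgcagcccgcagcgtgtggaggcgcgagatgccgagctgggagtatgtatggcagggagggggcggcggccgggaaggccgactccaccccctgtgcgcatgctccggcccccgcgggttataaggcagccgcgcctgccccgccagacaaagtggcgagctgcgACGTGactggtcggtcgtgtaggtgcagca
Slc16a3 promoter: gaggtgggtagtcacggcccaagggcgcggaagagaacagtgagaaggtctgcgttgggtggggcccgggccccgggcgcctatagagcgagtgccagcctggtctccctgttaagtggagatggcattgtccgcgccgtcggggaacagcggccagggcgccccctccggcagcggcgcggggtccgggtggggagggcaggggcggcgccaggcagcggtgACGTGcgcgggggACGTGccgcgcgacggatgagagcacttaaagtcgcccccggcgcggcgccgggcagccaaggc
Slc16a1 held 1 CACGTG, whose letters run into a match to TGACNNNGC on the minus strand, and an ACGTG after the start. Slc16a3 held 2 matches to ACGTG, 27 and 14 bases before the start. Both windows hold the core ACGTG, as do 25.5% of the promoters that matched a tested gene. Any role of these matches was not tested.

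Fructose 2,6-bisphosphate is the strongest known activator of phosphofructokinase, and the 4 Pfkfb genes encode the enzymes that make and break it. Pfkfb1, the liver and muscle form, had 1.13 and 0.989 CPM on day 0, 6.97 and 6.51 on day 2, and 89.6 and 77.6 on day 6. It was the member with the largest change, 6.31-fold higher at day 2 than at day 0 (log2 change 2.66, SE 0.16, adjusted p = 3.57e-06 by edgeR), 12.4-fold higher at day 6 than at day 2 (log2 change 3.63, SE 0.11, adjusted p = 2.20e-07 by edgeR) and 78.3-fold higher at day 6 than at day 0 (log2 change 6.29, SE 0.14, adjusted p = 1.86e-08 by edgeR). Pfkfb3, an inducible form with high kinase activity, had 55.01 and 43.4 CPM on day 0, 89.3 and 79.6 on day 2, and 619 and 436 on day 6. Most of its increase came after day 2, 6.24-fold at day 6 against day 2 (log2 change 2.64, SE 0.18, adjusted p = 4.96e-06 by edgeR), beside 1.71-fold at day 2 against day 0 (log2 change 0.78, SE 0.18, adjusted p = 0.00441 by edgeR).

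Pfkfb2, the heart form, had 7.62 and 6.88 CPM on day 0, 5.68 and 6.11 on day 2, and 9.61 and 7.78 on day 6. It was 1.48-fold higher at day 6 than at day 2 (log2 change 0.56, SE 0.16, adjusted p = 0.0121 by edgeR). Days 0 and 6 of Pfkfb2 were close, and the call was lost without library 77 of day 0, 76 of day 2 or 76 of day 6 and with library totals (adjusted p between 0.0588 and 0.254, the alternatives spanning 0.00196 to 0.254). Pfkfb4, first described in testis, had 8.61 and 10.5 CPM on day 0, 6.29 and 7.09 on day 2, and 12.5 and 16.5 on day 6. It was 2.17-fold higher at day 6 than at day 2 (log2 change 1.11, SE 0.17, adjusted p = 0.000577 by edgeR). Its lower level at day 2 against day 0 (log2 change -0.51, SE 0.18, adjusted p = 0.0297 by edgeR) was lost without library 77 of day 0 or either library of day 2, with library totals and with DESeq2 (adjusted p between 0.0512 and 0.400, the alternatives spanning 0.00205 to 0.400). Its higher level at day 6 against day 0 (log2 change 0.60, SE 0.17, adjusted p = 0.0121 by edgeR) was lost without library 76 of day 0 or 77 of day 6 and with library totals (adjusted p between 0.0564 and 0.112, the alternatives spanning 7.36e-05 to 0.112).

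Per kilobase, Pfkfb3 held the largest share of the family on every day, 66.6% ± 4.99 at day 0, 74.3% ± 1.94 at day 2 and 73.3% ± 3.49 at day 6 (SD, n = 2). The share of Pfkfb1 was 2.7% ± 0.00255 at day 0, 11.2% ± 0.0818 at day 2 and 22.2% ± 2.17 at day 6, and that of Pfkfb4 was 20.4% ± 4.78, 9.16% ± 1.28 and 3.27% ± 1.26 on the same days. Pfkfb2 held 10.3% ± 0.215, 5.42% ± 0.584 and 1.27% ± 0.0648. The second form of the family was thus Pfkfb4 at day 0 and Pfkfb1 at day 6. The promoter window of Pfkfb3, the leading form, at chr2:11553880-11554179 (minus strand), held 1 ACGTG, 60 bases before the start.
Pfkfb3 promoter: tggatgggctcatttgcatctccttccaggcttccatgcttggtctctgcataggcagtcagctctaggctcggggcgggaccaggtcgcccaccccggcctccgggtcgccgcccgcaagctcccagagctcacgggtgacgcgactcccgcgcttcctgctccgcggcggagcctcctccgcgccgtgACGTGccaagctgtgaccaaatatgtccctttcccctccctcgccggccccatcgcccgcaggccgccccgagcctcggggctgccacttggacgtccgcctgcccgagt

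Glycogen synthesis starts from glucose 1-phosphate. The phosphoglucomutase symbols Pgm1 and Pgm2 have changed places between mouse annotations, RefSeq giving each as an older name of the other, so that both are reported under the deposited symbol with no position. The row named Pgm2 had 92.5 and 81.5 CPM on day 0, 109.8 and 111 on day 2, and 361 and 297 on day 6. It was 2.99-fold higher at day 6 than at day 2 (log2 change 1.58, SE 0.11, adjusted p = 5.10e-06 by edgeR), while its 1.27-fold difference at day 2 against day 0 (log2 change 0.34, SE 0.11, adjusted p = 0.0217 by edgeR) did not pass without either library of day 2 (adjusted p = 0.0794 without 76 and 0.0789 without 77, the alternatives spanning 0.000530 to 0.0794). The row named Pgm1 had 23.7 and 24.4 CPM on day 0, 22.4 and 19.3 on day 2, and 17.0 and 17.6 on day 6. It was 1.39-fold lower at day 6 than at day 0 (log2 change -0.48, SE 0.10, adjusted p = 0.00268 by edgeR). At day 6 against day 2 it was 1.21-fold lower (log2 change -0.27, SE 0.10, adjusted p = 0.0411 by edgeR), a call lost with limma-voom (adjusted p = 0.0502) and without library 76 of day 0, 76 of day 2, 76 of day 6 or 77 of day 6 (between 0.0536 and 0.256), the alternatives spanning 0.000973 to 0.256.

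The 4 glycogen synthesis genes were all higher at day 6 than at day 2 and than at day 0, and at day 2 against day 0 they were 2 higher, 1 lower and 1 that did not pass. Gbe1, the branching enzyme, lies on chromosome 16 from 70313949 to 70569716 (plus strand) and had 15.2 and 14.8 CPM on day 0, 30.3 and 32.9 on day 2, and 288 and 202 on day 6. No days overlapped, and Gbe1 was 2.11-fold higher at day 2 than at day 0 (log2 change 1.07, SE 0.16, adjusted p = 0.000520 by edgeR) and 7.75-fold higher at day 6 than at day 2 (log2 change 2.95, SE 0.16, adjusted p = 1.46e-06 by edgeR). Gys1, the muscle-type glycogen synthase found in most tissues outside liver, had 93.3 and 78.3 CPM on day 0, 128 and 113 on day 2, and 306 and 233 on day 6. It was 2.23-fold higher at day 6 than at day 2 (log2 change 1.16, SE 0.14, adjusted p = 0.000135 by edgeR). Its 1.41-fold difference at day 2 against day 0 (log2 change 0.49, SE 0.14, adjusted p = 0.0139 by edgeR) did not pass without library 76 of day 2 (adjusted p = 0.0933, the alternatives spanning 2.46e-07 to 0.0933). Gyg, glycogenin, which primes new glycogen, had 66.1 and 76.5 CPM on day 0, 87.8 and 80.1 on day 2, and 222 and 199 on day 6. It was 2.51-fold higher at day 6 than at day 2 (log2 change 1.33, SE 0.10, adjusted p = 7.29e-06 by edgeR), with no passing difference at day 2 against day 0 (adjusted p = 0.0590 by edgeR). Gyg did pass there as higher by edgeR with RLE factors (adjusted p = 0.0421), library totals (0.0129) and no filter on low counts (0.0173). With limma-voom it also passed (adjusted p = 0.0469). Ugp2, which makes UDP-glucose for glycogen and for other sugar chains, had 79.6 and 75.0 CPM on day 0, 42.2 and 46.0 on day 2, and 134 and 103 on day 6. Its lowest libraries were those of day 2, 1.75-fold below day 0 (log2 change -0.81, SE 0.12, adjusted p = 0.000448 by edgeR), and day 6 was 2.7-fold above day 2 (log2 change 1.43, SE 0.12, adjusted p = 1.67e-05 by edgeR).

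**Figure D4:**
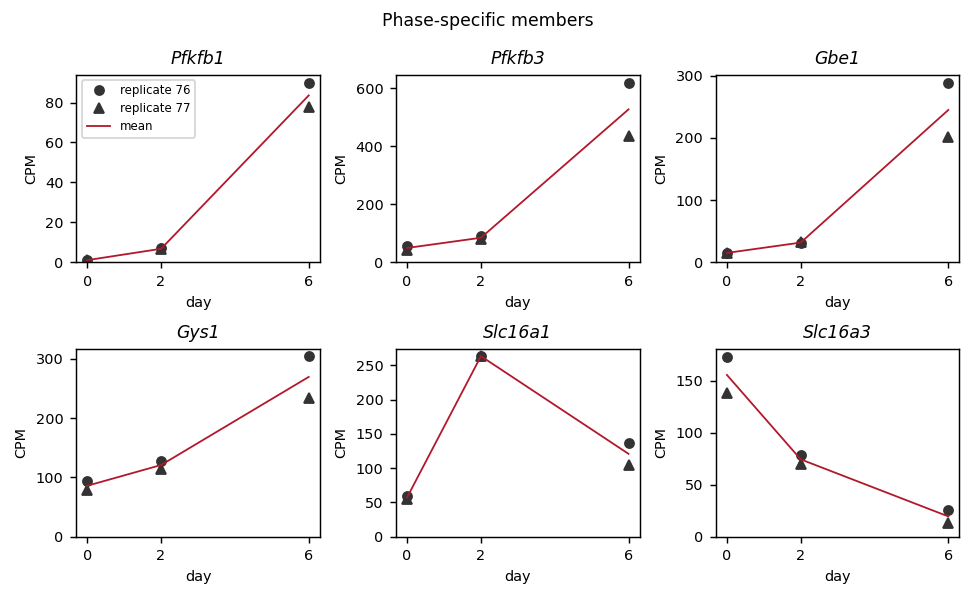
Levels in CPM of Pfkfb1, Pfkfb3, Gbe1, Gys1, Slc16a1 and Slc16a3 at days 0, 2 and 6, a panel each. Points are libraries and lines join the means of 2 libraries per day. The first 4 genes reach their highest level at day 6, Slc16a1 peaks at day 2 and Slc16a3 falls at each step.

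Glycogen phosphorylase releases glucose 1-phosphate from glycogen. Pygb, the brain form, had 160.3 and 157 CPM on day 0, 60.1 and 61.1 on day 2, and 74.7 and 81.0 on day 6. It was 2.61-fold lower at day 2 than at day 0 (log2 change -1.39, SE 0.07, adjusted p = 1.51e-06 by edgeR) and still 2.04-fold lower at day 6 than at day 0 (log2 change -1.03, SE 0.07, adjusted p = 3.36e-06 by edgeR). Its small gain at day 6 against day 2 (log2 change 0.36, adjusted p = 0.00188 by edgeR) was gone with library totals (0.00, adjusted p = 0.968, the alternatives spanning 0.000381 to 0.968). Pygl, the liver form, had 63.1 and 62.2 CPM on day 0, 37.7 and 42.3 on day 2, and 109 and 72.9 on day 6. It was 2.28-fold higher at day 6 than at day 2 (log2 change 1.19, SE 0.16, adjusted p = 0.000296 by edgeR). Its lower level at day 2 against day 0 (log2 change -0.65, SE 0.16, adjusted p = 0.00782 by edgeR) was lost without library 77 of day 0 (adjusted p = 0.0759) or 76 of day 2 (0.0655), the alternatives spanning 2.13e-11 to 0.0759. Its higher level at day 6 against day 0 (log2 change 0.54, SE 0.16, adjusted p = 0.0164 by edgeR) was lost without either library of day 0 and with library totals (adjusted p between 0.0662 and 0.115, the alternatives spanning 8.75e-09 to 0.115). Pygm, the muscle form, had 0.994 and 0.206 CPM on day 0, 0.884 and 0.360 on day 2, and 0.670 and 0.399 on day 6, with days that overlapped and no comparison that passed. Per kilobase, Pygl made up 21.5% ± 0.193 of the summed phosphorylase level at day 0, 31.1% ± 1.7 at day 2 and 44.2% ± 8.25 at day 6 (SD, n = 2). With the longest transcript's length the Pygl share at day 6 was 58.3% ± 8.14, which made it the larger one, while Pygb stayed the larger at days 0 and 2.

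**Figure D5:**
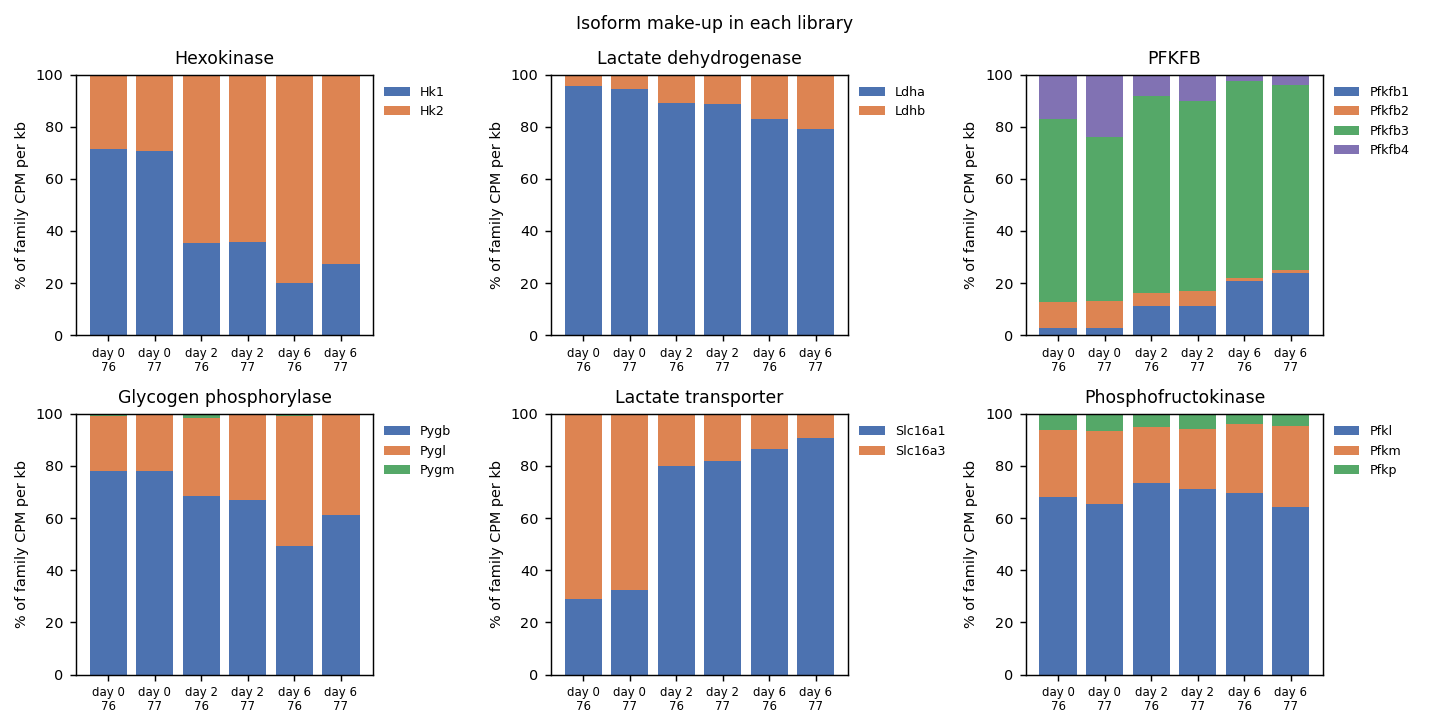
Share of each isoform, in percent of its family's summed CPM per kilobase of exon, in the 6 libraries, for 6 families. The Hk2 share averages 28.9% at day 0, 64.6% at day 2 and 76.3% at day 6, Slc16a1 and Slc16a3 exchange the larger share between day 0 and day 2, and Ldha keeps the larger share throughout.

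Khk, ketohexokinase, which phosphorylates fructose, had 12.8 and 13.5 CPM on day 0, 21.4 and 23.1 on day 2, and 22.6 and 19.3 on day 6. It was 1.69-fold higher at day 2 than at day 0 (log2 change 0.76, SE 0.11, adjusted p = 0.000319 by edgeR), and the libraries of day 6 overlapped those of day 2 with no passing difference (adjusted p = 0.501 by edgeR). With library totals in place of TMM, Khk passed as lower at day 6 against day 2 (log2 change -0.45, adjusted p = 0.00410 by edgeR).

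The order of the levels per kilobase of exon also differed between days. At day 6 Aldoa led at 1227 ± 181 CPM per kb, before Gapdh at 643 ± 150.0, Pgam1 at 555 ± 95.7, Ldha at 499 ± 141, Taldo1 at 391 ± 45.5 and Tpi1 at 347 ± 55.2 (SD, n = 2). The gap between Aldoa and Gapdh exceeded both SDs, whereas each later pair of neighbours differed by less than the larger of its SDs. At day 0 Gapdh led at 366 ± 31.0 CPM per kb, before Pkm at 356 ± 29.6, Aldoa at 293 ± 19.9, Ldha at 273 ± 21.0 and Pgam1 at 261 ± 22.2. There only the gap between Pkm and Aldoa exceeded both SDs of its pair. Taldo1 thus ranked 5 among the members at day 6, while at day 0 it ranked 11, at 37.0 ± 1.55 CPM per kb. These ranks rest on the length of all exons and depend on that choice. With the longest transcript's length, Eno1 stood at 646 and 541 CPM per kb on day 0, above Aldoa at 577 and 525. With all exons Eno1 ranked 7 at day 0 and Aldoa 3. The full order was not computed with the longest transcript's length.

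Other genes of these pathways were taken as whole lists. Of all genes tested, 33.6% were higher and 33.6% lower at day 2 against day 0. At day 6 against day 2 these shares were 38.2% and 27.5%, and at day 6 against day 0 35.9% and 35.1%. Of 26 further isoforms of the same steps, 14 were tested. At day 2 against day 0, 7 (50%) were higher and 3 (21.4%) lower. At day 6 against day 2 it was 8 (57.1%) and 3 (21.4%). At day 6 against day 0 it was 6 (42.9%) and 3 (21.4%), near the shares of all genes for the increases. The median log2 changes of the tested genes were 0.18, 0.50 and 0.51. Gys2, the liver-type glycogen synthase, had 0 counts in both libraries of day 0, 0.544 and 0.719 CPM at day 2, and 14.7 and 11.4 at day 6. Against a floor of 3 counts per library, it was at least 5.11-fold higher at day 2 than at day 0 and at least 105-fold higher at day 6 than at day 0, and against day 2 it was 20.5-fold higher at day 6 (log2 change 4.36, SE 0.26, adjusted p = 5.93e-06 by edgeR). Pgm5, a mutase relative known from muscle cell junctions, had 3.48 and 8.2 CPM on day 0, 0.170 and 0.180 on day 2, and 5.41 and 8.48 on day 6. It was lowest at day 2, 32.1-fold below day 0 (log2 change -5.00, SE 0.62, adjusted p = 0.000153 by edgeR) and 38.5-fold below day 6 (log2 change 5.27 for day 6 against day 2, adjusted p = 0.000106 by edgeR). Each library of day 2 held only 5 reads of Pgm5. Tigar, a fructose 2,6-bisphosphate phosphatase, had 8.81 and 8.69 CPM on day 0, 20.4 and 19.1 on day 2, and 32.3 and 29.2 on day 6. It was 3.52-fold higher at day 6 than at day 0 (log2 change 1.81, SE 0.10, adjusted p = 1.05e-06 by edgeR). Shpk, which makes sedoheptulose 7-phosphate of the pentose phosphate pathway, had 8.41 and 8.53 CPM on day 0, 8.94 and 8.42 on day 2, and 33.9 and 28.7 on day 6. It was 3.7-fold higher at day 6 than at day 0 (log2 change 1.89, SE 0.11, adjusted p = 1.91e-06 by edgeR). Hk3, another hexokinase, had 0.729 and 0.288 CPM on day 0, 0.204 and 0.0360 on day 2, and 1.52 and 0.698 on day 6. It was 8.87-fold higher at day 6 than at day 2 (log2 change 3.15, SE 0.76, adjusted p = 0.00633 by edgeR). The libraries of day 2 held only 6 and 1 reads of Hk3, so the size of this fold is uncertain. Blocked by replicate number, Hk3 also passed as lower at day 2 against day 0 (adjusted p = 0.0113 by edgeR) and as higher at day 6 against day 0 (0.0325).

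Of 19 genes of glycogen breakdown and control, 17 were tested. At day 2 against day 0, 2 (11.8%) were higher and 7 (41.2%) lower (median log2 change -0.31). At day 6 against day 2, 12 (70.6%) were higher and 2 (11.8%) lower (0.70), and at day 6 against day 0, 10 (58.8%) were higher and 2 (11.8%) lower (0.68). Ppp1r3d and Ppp1r3b encode glycogen-targeting subunits of protein phosphatase 1, which activates glycogen synthase. Ppp1r3d had 9.6 and 10.3 CPM on day 0, 5.24 and 5.43 on day 2, and 55.2 and 48.2 on day 6. It was 9.69-fold higher at day 6 than at day 2 (log2 change 3.28, SE 0.11, adjusted p = 2.47e-07 by edgeR). Ppp1r3b had 30.6 and 26.2 CPM on day 0, 14.7 and 14.9 on day 2, and 99.2 and 56.6 on day 6. It was 5.27-fold higher at day 6 than at day 2 (log2 change 2.40, SE 0.24, adjusted p = 4.02e-05 by edgeR). Both were lowest at day 2. Stbd1, which tethers glycogen to membranes, went down, with 33.8 and 35.4 CPM on day 0, 9.59 and 8.78 on day 2, and 6.66 and 6.78 on day 6, 5.15-fold lower at day 6 than at day 0 (log2 change -2.36, SE 0.10, adjusted p = 2.84e-07 by edgeR). Epm2a, the glycogen phosphatase laforin, had 6.46 and 7.46 CPM on day 0, 3.09 and 3.49 on day 2, and 11.1 and 6.98 on day 6. It was 2.11-fold lower at day 2 than at day 0 (log2 change -1.08, SE 0.24, adjusted p = 0.00381 by edgeR). Of the phosphorylase kinase subunits, Phka2 was 3.43-fold higher at day 6 than at day 0 (log2 change 1.78, SE 0.15, adjusted p = 1.49e-05 by edgeR) and Phkg1 was 3.47-fold higher at day 6 than at day 2 (log2 change 1.79, SE 0.28, adjusted p = 0.000569 by edgeR). Blocked by replicate number, Phkg2 also passed as lower at day 2 against day 0 (adjusted p = 0.0441 by edgeR), and Nhlrc1 as higher at day 6 against day 2 (0.0341) and against day 0 (0.0108).

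Of the 18 genes of glucose, pyruvate and lactate routes, all tested, 10 (55.6%) were higher and 2 (11.1%) lower at day 2 against day 0. At day 6 against day 2 it was 13 (72.2%) and 3 (16.7%), and at day 6 against day 0 13 (72.2%) and 4 (22.2%). The median log2 changes were 0.43, 2.23 and 3.08. Slc2a4, the insulin-regulated glucose transporter GLUT4, had 1.03 and 0.577 CPM on day 0, 5.95 and 5.83 on day 2, and 445 and 322 on day 6. It was 65.1-fold higher at day 6 than at day 2 (log2 change 6.02, SE 0.20, adjusted p = 2.47e-07 by edgeR). Pcx, pyruvate carboxylase, had 39.9 and 45.0 CPM on day 0, 625 and 556 on day 2, and 5087 and 3977 on day 6. It was 107-fold higher at day 6 than at day 0 (log2 change 6.74, SE 0.18, adjusted p = 3.18e-08 by edgeR). Of the mitochondrial pyruvate carrier genes, Mpc2 was 4.51-fold higher at day 2 than at day 0 (log2 change 2.17, SE 0.10, adjusted p = 1.10e-06 by edgeR), and Mpc1 was 8.66-fold higher at day 6 than at day 2 (log2 change 3.11, SE 0.17, adjusted p = 1.54e-06 by edgeR). Pdhb, a pyruvate dehydrogenase subunit, was 25.5-fold higher at day 6 than at day 0 (log2 change 4.67, SE 0.14, adjusted p = 5.47e-08 by edgeR). Ldhd, which oxidizes D-lactate, was 27.8-fold higher at day 6 than at day 2 (log2 change 4.80, SE 0.28, adjusted p = 2.43e-06 by edgeR). The 4 genes of this list that were lower at day 6 than at day 0 are named here after their values were seen. Slc2a1, the glucose transporter GLUT1, had 120.3 and 102 CPM on day 0, 95.1 and 98.1 on day 2, and 52.7 and 39.7 on day 6. It was 2.41-fold lower at day 6 than at day 0 (log2 change -1.27, SE 0.13, adjusted p = 4.65e-05 by edgeR). Emb, embigin, a partner protein of monocarboxylate transporters, was 6.69-fold lower at day 6 than at day 2 (log2 change -2.74, SE 0.17, adjusted p = 3.36e-06 by edgeR) and 4.71-fold lower than at day 0 (log2 change -2.23, SE 0.17, adjusted p = 7.23e-06 by edgeR). The others were Pdk3, a kinase that inhibits pyruvate dehydrogenase, 2.67-fold lower (log2 change -1.42, SE 0.10, adjusted p = 4.22e-06 by edgeR), and Pdp1, a phosphatase that activates it, 1.51-fold lower (log2 change -0.59, SE 0.12, adjusted p = 0.00195 by edgeR). Blocked by replicate number, Pdk1 also passed as lower and Pdk2 as higher at day 2 against day 0 (adjusted p = 0.0137 and 0.0192 by edgeR).

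Of the 7 polyol, fructose, galactose and UDP-sugar enzymes, 3 (42.9%) were higher and 3 (42.9%) lower at day 2 against day 0. At day 6 against day 2 it was 5 (71.4%) and 2 (28.6%), and the same at day 6 against day 0 (median log2 changes -0.01, 0.30 and 0.74). Ugdh, which takes UDP-glucose to UDP-glucuronate, had 132 and 130.5 CPM on day 0, 315 and 336 on day 2, and 89.2 and 93.5 on day 6, highest at day 2, 2.48-fold above day 0 (log2 change 1.31, SE 0.07, adjusted p = 2.45e-06 by edgeR). Galt, the galactose 1-phosphate uridylyltransferase, was 2.46-fold lower at day 2 than at day 0 (log2 change -1.30, SE 0.11, adjusted p = 1.89e-05 by edgeR) and 4.12-fold higher at day 6 than at day 2 (log2 change 2.04, SE 0.11, adjusted p = 1.44e-06 by edgeR). Sord, which makes fructose from sorbitol, was 4.62-fold higher at day 6 than at day 2 (log2 change 2.21, SE 0.11, adjusted p = 1.01e-06 by edgeR), and Galk1, galactokinase, was 1.93-fold lower at day 6 than at day 0 (log2 change -0.95, SE 0.09, adjusted p = 2.01e-05 by edgeR).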

How the data were processed

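Per the labels' protocols, polyadenylated RNA was captured, fragmented, reverse transcribed from random hexamers and amplified. The authors deposited raw read counts per gene, whole numbers without normalization although the column names say RPKM, made with TopHat2 2.0.13 and HTSeq 0.9.1 on mm10 (GRCm38), per the submitters' processing notes. No strand setting or annotation is named there. The 5 HTSeq summary lines stayed out of all totals: 2.62% to 3.23% of alignments had no feature, 4.40% to 4.91% were ambiguous and 4.16% to 9.05% were not unique.

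All 6 libraries entered 1 fit with a mean per day in edgeR 4.0.16 (R 4.3.3; quasi-likelihood F test, TMM, filterByExpr, 3 residual degrees of freedom, common biological coefficient of variation 0.083), with Benjamini-Hochberg adjustment over 14459 genes and a threshold of 0.05; 31349 genes were not tested. The standard error is the absolute log2 change divided by the root of F. Means are given ± SD. The steps were also run on simulated counts in which few genes changed and all genes shared a coefficient of variation of 0.083. Most genes changed in these data and day 6 was noisier, so that run is no check on the results here. Alternatives were RLE factors, library totals, no or a stricter filter (CPM of at least 1 in 2 libraries), DESeq2 1.42.0, limma-voom (limma 3.58.1), the replicate block and each library left out.

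All members were to be described, and of each other list at most the 3 tested genes with the largest passing change per comparison. A few genes that this rule would name are not reported here. Members and lists were chosen with earlier results of these data known. Lengths, overlaps and 50-base words came from GENCODE M21 on GRCm38, promoters from RefSeq GRCm38.p6.

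The series design states biological replicates but names no separate animals or cultures, so the p-values reflect only how far these libraries vary, which may be technical. Libraries of a day differed beyond counting noise (chi-square per degree of freedom 7.12, 7.85 and 27.4 at days 0, 2 and 6). Deviations from the day means correlated between same-numbered libraries across genes (r = 0.109 for days 0 and 2, 0.213 for days 2 and 6, 0.112 for days 0 and 6), all over 0.1. A fit blocked by number was therefore also run, although no label says what the number stands for. The fit reported has no block, so its p-values and counts leave any pairing by number out. The blocked value stands beside each gene whose call it changed. The labels name no molecular identifiers, so reads may copy the same molecule and the floor of 3 counts covers counting error only.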

Additional observations from a re-analysis of the deposited data

How the results depend on the processing

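Of 94 member calls, 71 held under all alternatives run and 23 were lost under at least 1, and 18 of 26 comparisons that did not pass did so under at least 1. With library totals in place of TMM, the all-gene median log2 change was 0.12 at day 2 against day 0, -0.23 at day 6 against day 2 and -0.26 at day 6 against day 0, beside 0.00, 0.12 and -0.01 with TMM. At day 6 against day 2, 3650 genes were higher and 6181 lower (5520 and 3981 with TMM), and 7 members were lower (4 with TMM). With it 9 of the 29 member increases at day 6 against day 2 were lost (log2 changes 0.00 to 0.24, adjusted p = 0.0759 to 0.968 by edgeR), and signs turned for Phka1 (-0.085), Gsk3b (-0.016), Akr1b3 (-0.094), Tkfc (-0.057) and Mlxip (-0.13), and for Gsk3b at day 6 against day 0 (-0.22). Leaving out 1 library at a time, 15 to 25 members were higher and 6 to 8 lower at day 2 against day 0, 26 to 32 and 3 to 6 at day 6 against day 2, and 25 to 30 and 4 to 8 at day 6 against day 0, the 4 without library 76 of day 0. The log2 change of Pgk1 at day 6 against day 2 ranged from -0.27 without library 76 of day 6 (adjusted p = 0.0483 by edgeR) to 0.36 without library 77 of day 6. With the replicate block for the pairing, 21 members were higher and 8 lower at day 2 against day 0, 30 and 4 at day 6 against day 2, and 28 and 7 at day 6 against day 0. It added Gpi1 and Pfkl in the first, Ldha in the second and Pfkl in the third, and changed no other member's call. The 3 days share 1 estimate of the spread, so the wider spread of day 6 also enters the p-values of day 2 against day 0. The upper end of the range of increases in that comparison came from leaving out a library of day 6. The 2 libraries per day limit which small changes could be called, and Pygm (5 to 30 reads) and Aldoc rest on few reads. The causes of these changes were not tested.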

Other observations

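Of 9 transcription factors and regulators of glucose metabolism, 6 (66.7%) were higher and 2 (22.2%) lower at day 2 against day 0 (median log2 change 0.93). At day 6 against day 2 it was 7 (77.8%) and 2 (22.2%) (1.55), and at day 6 against day 0 6 (66.7%) and 1 (11.1%) (2.00). Mlxipl, the glucose-sensing factor ChREBP, had 0.563 and 0.989 CPM on day 0, 5.64 and 4.93 on day 2, and 134 and 100.4 on day 6, 154-fold more at day 6 than at day 0 (log2 change 7.27, SE 0.23, adjusted p = 6.35e-08 by edgeR). Myc, a growth regulator, had 29.3 and 28.8 CPM on day 0, 161 and 142 on day 2, and 28.0 and 28.1 on day 6. It was highest at day 2, 5.23-fold above day 0 (log2 change 2.39, SE 0.08, adjusted p = 3.45e-07 by edgeR), and day 6 was 5.41-fold below day 2 (log2 change -2.44, SE 0.08, adjusted p = 2.47e-07 by edgeR). Srebf1, a lipid synthesis regulator, had 158 and 152 CPM on day 0, 396 and 342 on day 2, and 1112 and 1048 on day 6, 6.97-fold more at day 6 than at day 0 (log2 change 2.80, SE 0.10, adjusted p = 1.19e-07 by edgeR). Hif3a, a hypoxia-inducible factor subunit, stayed low at 0.166 and 0.124 CPM on day 0, 0.680 and 0.899 on day 2, and 3.26 and 3.14 on day 6 and was 21.2-fold higher at day 6 than at day 0 (log2 change 4.40, SE 0.37, adjusted p = 1.22e-05 by edgeR). The other hypoxia-inducible factor genes listed, named here after their values were seen, went opposite ways. Hif1a passed as lower and Epas1 as higher in every comparison by edgeR.

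Of 10 hypoxia-inducible genes outside glycolysis, 6 (60%) were lower at day 2 against day 0 and the other 4 did not pass (median log2 change -0.49). At day 6 against day 2, 4 (40%) were higher and 4 (40%) lower (0.02), and at day 6 against day 0, 2 (20%) were higher and 5 (50%) lower (-0.17). The shares of all genes tested are those given above. Blocked by replicate number, Bnip3 passed as higher at day 2 against day 0 (log2 change 0.57, adjusted p = 0.00561 by edgeR, beside 0.0731 without the block), and Adm as higher at day 6 against day 0 (0.0481). Adm, the vasodilator peptide adrenomedullin, had 160.1 and 170.1 CPM on day 0, 13.2 and 19.7 on day 2, and 183 and 212 on day 6. Its day 2 libraries lay 10.1-fold below day 0 (log2 change -3.33, SE 0.17, adjusted p = 1.74e-06 by edgeR), and day 6 was 12.0-fold above day 2 (log2 change 3.59, SE 0.17, adjusted p = 9.02e-07 by edgeR). Egln3, an oxygen-sensing prolyl hydroxylase, had 6.56 and 4.12 CPM on day 0, 5.13 and 4.82 on day 2, and 121 and 65.2 on day 6 and was 17.2-fold higher at day 6 than at day 0 (log2 change 4.10, SE 0.32, adjusted p = 7.82e-06 by edgeR). Bnip3, a mitochondrial clearance factor, had 115 and 84.4 CPM on day 0, 149.6 and 139.8 on day 2, and 789 and 462 on day 6 and was 6.28-fold higher at day 6 than at day 0 (log2 change 2.65, SE 0.25, adjusted p = 2.35e-05 by edgeR). Ndrg1, a stress-responsive gene, had 23.6 and 22.9 CPM on day 0, 7.96 and 10.2 on day 2, and 5.81 and 5.59 on day 6, 2.57-fold lower at day 2 than at day 0 (log2 change -1.36, SE 0.13, adjusted p = 3.46e-05 by edgeR). Car9, a carbonic anhydrase, had 1.62 and 0.659 CPM on day 0, 0.170 and 0.144 on day 2, and 0.0447 and 0.150 on day 6. The later days were near the detection limit, with 4 reads in all at day 6. Car9 passed as lower at day 2 and at day 6 against day 0 by edgeR, and did not pass at day 6 against day 2.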
